A study of Rattus norvegicus with 18 samples.

Results

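The amyloid precursor protein App, its relative Aplp2 and 7 genes for the proteases that cut them were followed in primary rat astrocytes and microglia exposed to amyloid fibrils. The 9 genes, taken by symbol, were App, Aplp2, Bace1, Bace2, Psen2, Ncstn, Aph1a, Adam10 and Adam17, out of 16704 symbols that the count tables of both cell types list. RNA of 18 cultures was sequenced in 6 groups of 3, untreated control cells and cells given Aβ42 or Aβ40 fibrils, for each cell type. All groups came from the cortex of wild type Sprague-Dawley rat pups (P2) and were kept in serum-free medium, with fibrils at 25 µM and RNA taken after 24 h. Microglia were shaken off a mixed glial culture and astrocytes are the layer that stayed, so each culture can hold other cells. Nothing says whether the replicates come from separate animals or preparations, and the p-values measure the spread between these libraries.

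APP is a membrane protein that is cut in more than one order. When β-secretase (BACE1) cuts first and γ-secretase follows, Aβ peptides are released, whereas α-secretase (ADAM10, ADAM17) cuts inside the Aβ stretch and prevents that product. γ-Secretase is a complex in which a presenilin holds the active site, nicastrin and APH1 hold the complex together, and ADAM17 is also the enzyme that releases soluble TNFα from cells of the immune system.

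The counts on genes ranged from 3674043 to 19013919 per astrocyte library and from 2271834 to 22274367 per microglia library. Levels are given as CPM, read counts brought to a common library size by TMM scaling within each cell type, with the 3 libraries in the order of replicates 1, 2 and 3. They compare a gene between samples and not 1 gene with another, since gene length is not taken into account. A gene passed the test at an adjusted p-value under 0.05 (edgeR, over all genes tested), and fold changes are log2 values unless named as folds. Of the 9 genes, 9 passed the filter on low counts in astrocytes and 8 in microglia, where Bace2 did not.

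Both cell types carried their own markers. The 9 astrocyte markers (Gfap, Aqp4, Slc1a3 and others) summed to 7178 to 8195 CPM in control astrocytes and to 159 to 177 CPM in control microglia. The 10 microglial markers (Aif1, Cx3cr1, Csf1r and others) summed to 7684 to 8919.9 CPM in control microglia and to 363 to 445 CPM in control astrocytes, so the astrocyte cultures held a microglial signal. Single markers parted the cell types unevenly. In control microglia and control astrocytes, Csf1r was at 2494 and 124 CPM and Cx3cr1 at 36.8 and 26.0 CPM. Summed in astrocyte cultures, the microglial markers were lower with fibrils, at 57.6 to 80.0 CPM with Aβ42 and 32.5 to 45.4 CPM with Aβ40. In microglia their sum fell to 1960 to 3170 CPM and 2793 to 3438 CPM. In bulk RNA, fewer cells of a type and less RNA per cell cannot be told apart. Other lists moved too. In astrocyte cultures the astrocyte markers summed to 5034 to 5321 CPM with Aβ42 and 5519 to 5884 CPM with Aβ40. Of these 9, 2 were higher and 6 lower with Aβ42, and 3 higher and 5 lower with Aβ40. Gfap went from 2839 to 1316 and 1574 CPM, while Aldh1l1 went from 38.7 to 123 and 106 CPM. The 8 oligodendrocyte lineage markers went from 1725 to 2573 CPM in controls to 1272 to 1372 CPM and 1346 to 1366 CPM. With either form 5 of 8 were lower and 0 higher. Over all genes, 16.5% were higher and 20.4% lower with Aβ42, and 14.9% and 18.4% with Aβ40. In microglia, markers of other cells moved in both directions. With Aβ42, 5 of 8 oligodendrocyte lineage markers were higher and 1 lower (1963 to 2167 CPM in controls, 2180.0 to 2833 CPM with Aβ42). Of the neuronal markers, 3 of 6 tested were higher and 0 lower (266 to 286 CPM, 429 to 474 CPM). Of the fibroblast markers, 3 of 4 tested were higher and 0 lower (55.4 to 67.8 CPM, 134 to 162 CPM). Of 3 endothelial markers tested, 0 were higher and 2 lower. Of 8 astrocyte markers tested, 3 were higher and 1 lower, and the list summed to 124 to 146 CPM. Over all genes, 27.1% were higher and 26.6% lower. With Aβ40 the counts higher and lower were 4 and 1 for the oligodendrocyte lineage, 3 and 0 for neurons and 2 and 1 for fibroblasts. They were 1 and 1 for endothelium and 4 and 1 for astrocyte markers, beside 19.6% and 21.4% of all genes. Among the fibroblast markers, Dcn, singled out after its values were seen, went from 0.427 CPM in control microglia to 71.1 CPM with Aβ42 and 64.6 CPM with Aβ40. Most of the rise in the summed list was that of Dcn. Col3a1 went the other way, from 16.0 to 8.92 and 3.36 CPM. Col1a1 went from 44.9 to 63.5 and 47.0 CPM, Lum from 1.31 to 7.05 and 6.47 CPM, and Col1a2 from 0.388 to 0.632 and 0.0804 CPM. The part of these cells in the results on the 9 genes was not tested.

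A pair of libraries stood apart from their groups. The library labelled microglia Aβ42 replicate 1, with 2613723 counts, correlated at 0.984 with the mean of the Aβ40 libraries and at 0.962 with the other Aβ42 libraries (Pearson r of log2 CPM over genes, which are not independent). Astrocyte control replicate 2 correlated at 0.951 with the other controls, against 0.977 and 0.978 for those. Values without these libraries are given beside the results.

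The windows of 250 bases before the annotated start were compared in RefSeq (GRCr8), where 8 of the 9 genes have an entry and Bace2 has none. Only those of Adam10, an α-secretase, and Bace1, the β-secretase, lie outside every annotated gene, and they are printed because these enzymes make the competing first cuts in APP. Both are on the plus strand, Adam10 at chr8:80226612-80226861 and Bace1 at chr8:55038592-55038841, and capitals mark the GC box GGGCGG on either strand.
Adam10: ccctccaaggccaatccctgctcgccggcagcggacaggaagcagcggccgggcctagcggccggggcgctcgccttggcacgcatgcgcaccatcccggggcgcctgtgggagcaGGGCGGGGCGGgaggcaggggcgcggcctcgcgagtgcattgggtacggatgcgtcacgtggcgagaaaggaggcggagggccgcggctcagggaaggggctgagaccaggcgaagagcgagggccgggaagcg
Bace1: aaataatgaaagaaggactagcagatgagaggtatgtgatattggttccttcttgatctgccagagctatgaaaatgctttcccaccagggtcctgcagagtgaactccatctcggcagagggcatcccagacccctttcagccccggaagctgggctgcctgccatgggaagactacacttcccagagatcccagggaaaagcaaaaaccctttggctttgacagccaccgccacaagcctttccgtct
The Adam10 window held 2 GC boxes that share a base, at a GC content of 74.4%, and the Bace1 window held none, at 52.0%, against a median of 51.2% over 33465 windows of the same length. A GC box was found in 5 of the 8 genes (App, Aplp2, Aph1a, Adam10, Adam17) and in 30.5% of all windows. None of the 8 windows held TATAAA, TTCNNNGAA, the interferon-stimulated response element, TGACGTCA or the NF-κB consensus, which 12.9%, 7.67%, 3.41%, 1.59% and 6.33% of all windows hold on either strand. A match is a string of letters and not a measured site.

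In untreated cells, most of the secretase genes were more abundant in microglia than in astrocytes, and Bace2 was near the detection limit in microglia. Bace2 entered the joint fit of all 18 libraries only through its astrocyte level and is left out of the counts. Of the other 8 genes, 1 was higher in astrocytes (Psen2) and 5 were lower (Aplp2, Ncstn, Aph1a, Adam10, Adam17). Over 11581 genes, 34.5% and 34.2% passed in these directions. The median over the 9 genes, Bace2 included, was −0.42 and over all genes 0.00. The values in this comparison are CPM scaled over all 18 libraries, as mean ± SD (n = 3). Without astrocyte control replicate 2, App was also higher in astrocytes (0.26, adjusted p = 0.0419), the other calls stood, and Aph1a went from −1.66 to −1.28.

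Adam17 was at 95.8 ± 12.6 CPM in astrocytes and 639 ± 16.7 CPM in microglia, 6.67-fold lower in astrocytes (−2.74, adjusted p = 1.85e-13). Adam10 was 2.59-fold lower (87.7 ± 15.1 against 227 ± 16.5 CPM, adjusted p = 3.70e-07). The α-secretase transcripts thus stood higher in microglia, with no overlap between the libraries. Of the γ-secretase subunits, Aph1a was 3.16-fold lower in astrocytes (80.0 ± 42.5 against 255 ± 27.4 CPM, adjusted p = 5.55e-05) and Ncstn 1.99-fold lower (228 ± 36.0 against 454 ± 6.99 CPM, adjusted p = 1.48e-07). Psen2, a presenilin, went the other way and was 1.58-fold higher in astrocytes (37.2 ± 7.14 against 23.6 ± 3.43 CPM, adjusted p = 0.00541).

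Bace1 did not differ beyond its spread, at 21.4 ± 6.71 CPM in astrocytes and 23.3 ± 0.404 CPM in microglia (difference −0.10, 95% interval −0.48 to 0.29). Bace2, a relative of Bace1 that can also cut APP within the Aβ stretch, was at 17.5 ± 0.895 CPM in astrocytes and rested on 4, 1 and 3 counts in control microglia. The ratio of Bace1 to Bace2 counts was 0.775 to 1.64 in control astrocytes and 44.5 to 110.0 in control microglia. Gene length was not taken into account, so the ratio compares samples and not enzymes.

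App did not pass between the untreated cell types. Its 6 group means, in CPM scaled over all 18 libraries, were in falling order 799 ± 31.0 in Aβ40 astrocytes, 741 ± 22.6 in Aβ42 astrocytes, 735 ± 55.3 in control astrocytes, 632 ± 26.6 in control microglia, 613 ± 81.7 in Aβ42 microglia and 608 ± 37.5 in Aβ40 microglia. The untreated difference of 0.22 (95% interval −0.00 to 0.44) did not pass (adjusted p = 0.0752), although all 3 astrocyte libraries lay above all 3 microglia libraries. It passed in 6 of 14 alternatives, among them DESeq2 size factors (0.27, adjusted p = 0.0315). Scaling by library totals moved the median of all genes by 0.28 and the share of calls that were higher in astrocytes from 50.2% to 62.6%, and App to 0.50 (adjusted p = 4.58e-04). Aplp2, which is cut by the same enzymes but holds no Aβ stretch, was 1.34-fold lower in astrocytes (901 ± 153 against 1205 ± 34.7 CPM, adjusted p = 0.00268), and under library totals it was −0.14 (adjusted p = 0.254).

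**Figure D1:**
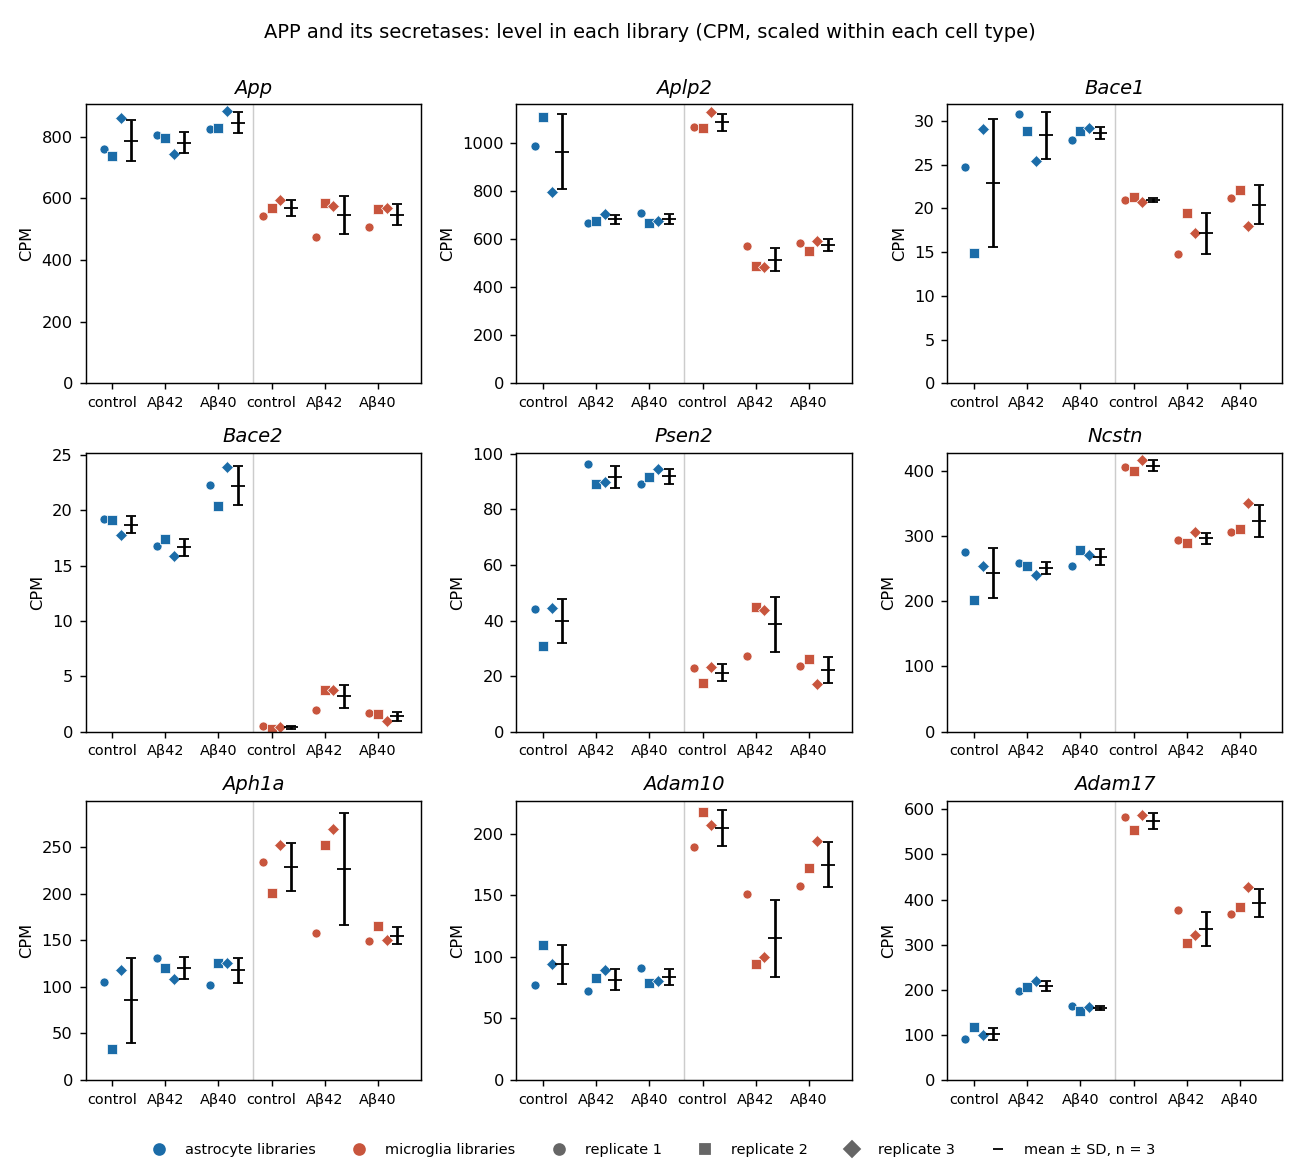
Level of each of the 9 genes in CPM (vertical axis from 0, scaled within each cell type) in the control, Aβ42 and Aβ40 libraries of astrocytes (blue) and microglia (red), with marker shape for the replicate and bars for mean ± SD (n = 3). Aplp2 is lower with fibrils in both cell types, and Adam17 is higher with fibrils in astrocytes (102 ± 13.4 CPM in controls, 208 ± 11.2 with Aβ42) and lower in microglia (575 ± 17.7 and 334 ± 37.7 CPM).

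Whether fibrils change the transcripts that make or divert Aβ was asked in each cell type against its own controls. In astrocytes, Psen2 and Adam17 rose and Aplp2 fell with either fibril, while App, Bace1, Bace2, Ncstn, Aph1a and Adam10 did not pass. That is 2 of 9 higher and 1 of 9 lower with Aβ42, where 16.5% and 20.4% of 11690 genes passed, and the same counts with Aβ40, where 14.9% and 18.4% passed. The median over the 9 genes was 0.04 with Aβ42 and 0.26 with Aβ40, beside 0.00 over all genes in both. The comparisons share the 3 control libraries. Without control replicate 2 the counts were again 2 higher and 1 lower with either fibril, beside 22.1% and 24.8% of all genes with Aβ42 and 19.6% and 22.2% with Aβ40.

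In microglia, Aplp2, Ncstn and Adam17 fell with either fibril, Adam10 fell and Psen2 rose with Aβ42, and Aph1a fell with Aβ40. With Aβ42, 1 of the 8 genes tested was higher and 4 were lower, where 27.1% and 26.6% of 10837 genes passed. With Aβ40, none was higher and 4 were lower, where 19.6% and 21.4% passed. The medians over the 8 genes were −0.35 and −0.29, beside 0.01 over all genes in both. Without the library labelled microglia Aβ42 replicate 1, the counts over these 8 genes were 1 higher and 4 lower with Aβ42 (34.6% and 35.7% of all genes) and 0 higher and 5 lower with Aβ40 (26.4% and 27.6%). The gene added was Adam10 with Aβ40 (−0.24), which did not pass with all libraries (−0.23, adjusted p = 0.286). The library was left out after seeing the data and is in neither compared group, so no test is read from that added call. Without that library Bace2 entered the fit, but only through the 2 remaining Aβ42 libraries. Bace2 is left out of these counts and given with no test.

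**Figure D2:**
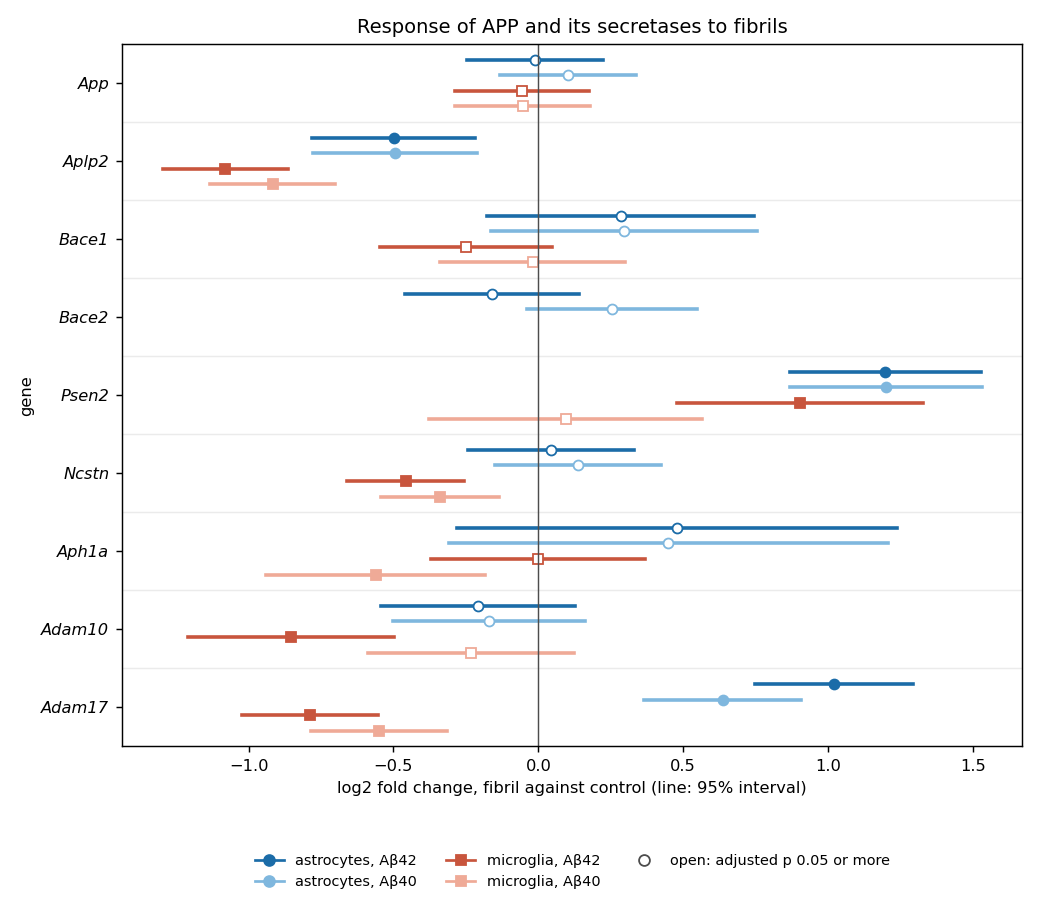
Log2 fold change of each gene (horizontal axis) for fibrils against control in astrocytes (circles) and microglia (squares), with 95% intervals and filled markers where the adjusted p-value was under 0.05; Bace2 has no microglia value because it did not pass the filter. Adam17 lies at 1.02 and 0.64 in astrocytes and at −0.79 and −0.55 in microglia.

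App, the substrate, did not pass in any comparison with control. It was at 761, 738 and 862 CPM in control astrocytes, 805, 795 and 743 CPM with Aβ42 and 824, 827 and 884 CPM with Aβ40. In microglia it was at 543, 567 and 594 CPM in controls, 475, 586 and 575 CPM with Aβ42 and 507, 567 and 569 CPM with Aβ40. The groups overlapped in each of these comparisons with control. The 4 fold changes against control ran from −0.06 to 0.10, and the 95% intervals of all 4 lay between −0.29 and 0.34.

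Aplp2 fell in both cell types. It was at 985, 1107 and 796 CPM in control astrocytes, 665, 673 and 704 CPM with Aβ42 and 708, 667 and 673 CPM with Aβ40, and every fibril library lay below every control. The changes were −0.50 (SE 0.13, adjusted p = 0.0102) and −0.50 (SE 0.13, adjusted p = 0.0117), and neither reached 1.5-fold. The adjusted p-value rose to 0.0520 without astrocyte Aβ42 replicate 1, and for Aβ40 to 0.0539 and 0.0602 without Aβ40 replicates 2 and 3 and to 0.0523 with the compared groups alone. In microglia Aplp2 was at 1063, 1063 and 1126 CPM in controls, 569, 488 and 483 CPM with Aβ42 and 582, 548 and 593 CPM with Aβ40, again with no overlap. The falls were 2.11-fold with Aβ42 (−1.08, adjusted p = 2.17e-06) and 1.89-fold with Aβ40 (−0.92, adjusted p = 1.12e-05). The ratio of App to Aplp2 counts was 0.511 to 0.534 in control microglia, 0.836 to 1.20 with Aβ42 and 0.871 to 1.03 with Aβ40.

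The β-secretase Bace1 did not pass in any comparison with control. In astrocytes it was at 24.8, 14.8 and 29.1 CPM in controls, 30.8, 28.8 and 25.5 CPM with Aβ42 and 27.9, 28.9 and 29.2 CPM with Aβ40. In microglia it was at 21.0, 21.2 and 20.7 CPM, 14.8, 19.4 and 17.2 CPM and 21.2, 22.1 and 17.9 CPM. The Aβ42 microglia libraries lay below the controls, but the change of −0.25 (95% interval −0.55 to 0.05) did not pass (adjusted p = 0.141). In astrocytes the changes were 0.28 and 0.30, and without control replicate 2, the lowest library, they were 0.06 and 0.07.

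Bace2 was at 19.2, 19.1 and 17.8 CPM in control astrocytes, 16.8, 17.4 and 15.9 CPM with Aβ42 and 22.3, 20.4 and 24.0 CPM with Aβ40. The Aβ42 libraries lay below the controls and the Aβ40 libraries above them, but neither change passed (−0.16, adjusted p = 0.391, and 0.26, adjusted p = 0.17). In microglia Bace2 rested on few reads, with 4, 1 and 3 counts in controls, 5, 87 and 66 counts with Aβ42, and 7, 7 and 2 counts with Aβ40. Relative to library size this was 9.26 times the control with Aβ42 (95% interval of 4.59 to 21.8) and 3.75 times with Aβ40 (1.51 to 10.1), where the exact intervals cover counting error only. No test is given for Bace2 in microglia. The levels reached, 2.00, 3.77 and 3.76 CPM with Aβ42, were below those of every astrocyte library.

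Of the γ-secretase subunits, Psen2 had the largest rise among the 9 genes in astrocytes. It was at 44.3, 30.9 and 44.4 CPM in controls, 96.4, 89.2 and 89.8 CPM with Aβ42 and 89.3, 91.8 and 94.6 CPM with Aβ40. Every fibril library lay above every control, and the rise was 2.29-fold with Aβ42 (1.20, SE 0.15, adjusted p = 9.22e-05) and 2.30-fold with Aβ40 (1.20, SE 0.15, adjusted p = 1.01e-04). Without control replicate 2, the lowest control, the rises were 1.06 and 1.06.

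In microglia Psen2 was at 22.97, 17.6 and 23.2 CPM in controls, 27.2, 44.9 and 43.7 CPM with Aβ42 and 23.6, 26.2 and 17.0 CPM with Aβ40. The Aβ42 libraries lay above the controls, replicate 1 closest to them, and the Aβ40 libraries overlapped the controls. The rise was 1.87-fold with Aβ42 (0.90, SE 0.19, adjusted p = 0.00202) and 1.04 on the log2 scale without replicate 1. With Aβ40 the change was 0.09 (95% interval −0.38 to 0.56, adjusted p = 0.766).

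Ncstn, which encodes nicastrin, fell in microglia with no overlap between groups. It was at 407, 400.4 and 417 CPM in controls, 295, 290.2 and 307 CPM with Aβ42 and 307, 312 and 351 CPM with Aβ40. The falls were 1.37-fold (−0.46, adjusted p = 0.00133) and 1.26-fold (−0.34, adjusted p = 0.0114). The Aβ40 call was lost without Aβ40 replicate 1 or 2 or control replicate 1 or 3 (adjusted p of 0.0547 to 0.0628). In astrocytes Ncstn was at 276, 201 and 254 CPM in controls, 259, 255 and 241 CPM with Aβ42 and 254, 279 and 271 CPM with Aβ40, overlapping, with changes of 0.04 and 0.14 that did not pass.

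Aph1a was the least steady of the subunits. In astrocytes it was at 106, 33.3 and 118 CPM in controls, 132, 121 and 108 CPM with Aβ42 and 102, 126 and 126 CPM with Aβ40, and 1 control library lay far below the rest. The changes of 0.48 and 0.45 did not pass and were 0.11 and 0.08 without that library. In microglia it was at 234, 201 and 252 CPM in controls, 158, 252 and 270.2 CPM with Aβ42 and 149.6, 165 and 151 CPM with Aβ40. The Aβ40 libraries lay below the controls (1.48-fold lower, −0.56, adjusted p = 0.021), a call lost without Aβ40 replicate 1 or 3 or control replicate 1 or 3 (adjusted p of 0.0649 to 0.0950). The Aβ42 libraries overlapped the controls (−0.00, and 0.18 without replicate 1, adjusted p = 0.0922).

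Adam17, an α-secretase, was at 90.2, 117 and 100.5 CPM in control astrocytes, 198, 206 and 220.0 CPM with Aβ42 and 163, 154 and 161 CPM with Aβ40. The 3 groups did not overlap, and the rise was 2.03-fold with Aβ42 (1.02, SE 0.12, adjusted p = 7.19e-05) and 1.55-fold with Aβ40 (0.64, SE 0.12, adjusted p = 0.00215). The microglial markers in these cultures fell in the same libraries, to the sums given above. Adam17 and Aplp2 were both more abundant in untreated microglia, and in these cultures Adam17 rose and Aplp2 fell. The part of the microglial signal in the Adam17 and Aplp2 values was not tested.

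In microglia Adam17 went the other way. It was at 583, 555 and 587 CPM in controls, 376, 303 and 322 CPM with Aβ42 and 369, 382 and 427 CPM with Aβ40, and every fibril library lay below every control. The falls were 1.73-fold (−0.79, SE 0.11, adjusted p = 6.59e-05) and 1.46-fold (−0.55, SE 0.11, adjusted p = 0.00133). The summed microglial markers fell in the same libraries. With Aβ42, 8 of 10 were lower and 1 higher, beside 26.6% and 27.1% of all genes. With Aβ40, 9 of 10 were lower and 1 higher, beside 21.4% and 19.6%. With Aβ42, 5 of 8 oligodendrocyte lineage, 3 of 6 neuronal and 3 of 4 fibroblast markers were higher, and 2 of 3 endothelial markers were lower. Their part in the Adam17, Aplp2 and Ncstn values was not tested.

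Adam10, the main α-secretase of neurons, did not pass in astrocytes, at 77.4, 109.6 and 94.5 CPM in controls, 72.2, 82.7 and 89.4 CPM with Aβ42 and 90.9, 79.2 and 80.4 CPM with Aβ40 (−0.21 and −0.17, overlapping). In microglia it was at 189, 218 and 207 CPM in controls, 151, 94.5 and 99.7 CPM with Aβ42 and 158, 172 and 194 CPM with Aβ40. All Aβ42 libraries lay below the controls, replicates 2 and 3 by the most, and the fall was 1.81-fold (−0.85, SE 0.16, adjusted p = 9.21e-04) or −1.08 on the log2 scale without replicate 1. With Aβ40 the groups overlapped and the change of −0.23 did not pass (adjusted p = 0.286). The ratio of Adam10 to Adam17 counts was 0.913 ± 0.0473 (SD, n = 3) in control astrocytes, 0.391 ± 0.0228 with Aβ42 and 0.524 ± 0.0295 with Aβ40. In microglia it was 0.357 ± 0.0342 in controls, 0.341 ± 0.0528 with Aβ42 and 0.444 ± 0.0140 with Aβ40, and the Aβ42 libraries overlapped the controls.

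The fibril forms were compared directly. In astrocytes 0 of 9 genes passed with edgeR, where 0.0599% of all genes were higher and 0.0257% lower with Aβ42, and 0 with DESeq2. The highest difference was that of Adam17, at 0.38 (95% interval 0.12 to 0.65, adjusted p = 0.381). The lowest was that of Bace2, at −0.42 (95% interval −0.70 to −0.13, adjusted p = 0.369). Neither overlapped between the forms, nor did App, at −0.11 (95% interval −0.35 to 0.12). Fitted on the 6 fibril libraries alone, Adam17 passed (0.39, adjusted p = 0.0420). For Psen2 the difference was −0.00, with a 95% interval of −0.32 to 0.32.

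In microglia 2 of 8 genes were higher with Aβ42 than with Aβ40 and 1 was lower, where 11.3% and 9.01% of all genes passed. Psen2 was 1.75-fold higher (0.81, adjusted p = 0.0259), Aph1a 1.47-fold higher (0.56, adjusted p = 0.0418) and Adam10 1.54-fold lower (−0.62, adjusted p = 0.0291). These calls depended on the libraries fitted. None passed on the 6 fibril libraries alone (adjusted p of 0.0738 to 0.0958), nor when any 1 Aβ40 library or Aβ42 replicate 2 or 3 was left out (0.0643 to 0.185).

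The library labelled Aβ42 replicate 1 was left out because it resembled the Aβ40 libraries. That choice widens the difference between the forms, so no test is read from this fit. All genes called went from 2198 to 6004. Psen2 was then 0.94, Aph1a 0.75, Adam10 −0.84, Aplp2 −0.24 and Adam17 −0.33. App, Bace1 and Ncstn did not pass with all libraries. Depth moved with the forms, since Aβ42 replicates 2 and 3 held 22274367 and 17687416 counts and the Aβ40 libraries 2271834 to 4425805. The part of depth was not tested.

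**Figure D3:**
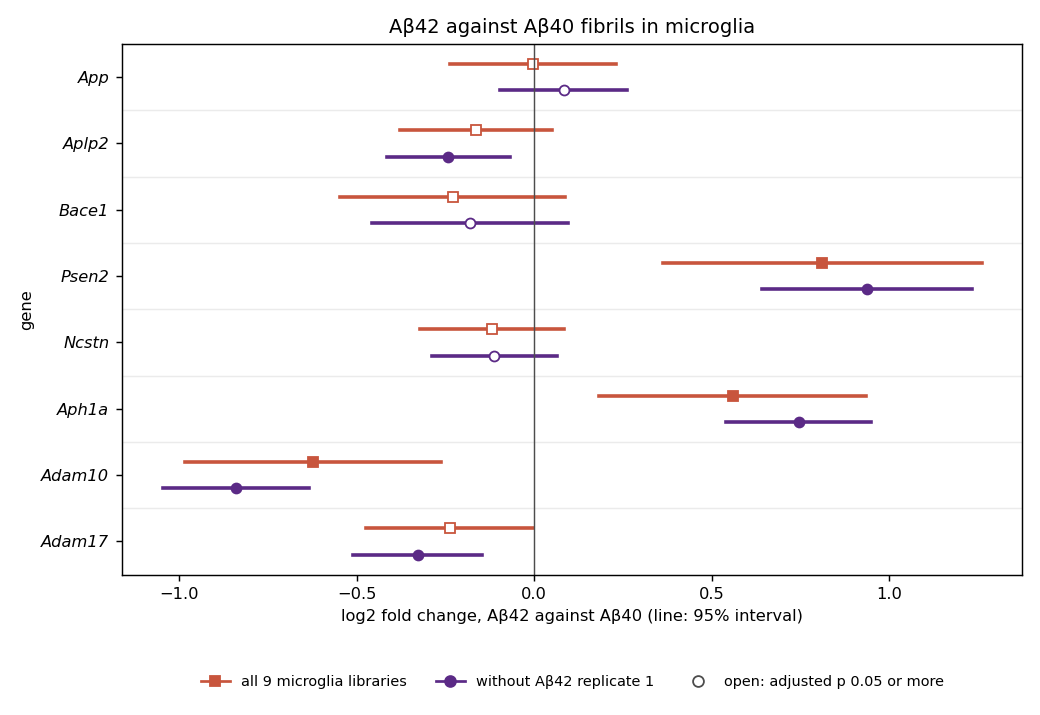
Log2 fold change for Aβ42 against Aβ40 fibrils in microglia (horizontal axis) with 95% intervals, from all 9 libraries (squares) and without the library labelled Aβ42 replicate 1 (circles), filled where the adjusted p-value was under 0.05. Bace2 is not drawn, and Psen2 and Aph1a lie above 0 and Adam10 below 0 in both fits, at 0.81, 0.56 and −0.62 with all libraries. Leaving that library out for its likeness to Aβ40 widens the difference, so the circles are not read as tests.

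Whether the cell types responded differently was tested as the difference of the responses, microglia minus astrocytes, in the joint fit. Bace2 entered this fit only through its astrocyte level and is left out of the counts. With Aβ42, 0 of the other 8 genes had a higher response in microglia and 4 had a lower one, where 19.3% and 17.9% of all genes passed. With Aβ40 the counts were also 0 and 4, where 16.0% and 16.5% passed. Adam17 differed in direction, at −1.82 with Aβ42 (95% interval −2.15 to −1.49, adjusted p = 4.26e-08) and −1.20 with Aβ40 (adjusted p = 8.35e-06).

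Ncstn fell in microglia relative to astrocytes by 0.51 with Aβ42 and by 0.49 with Aβ40 on the log2 scale (adjusted p = 0.0134 and 0.0188). Aplp2 fell further in microglia, by 0.59 with Aβ42 (adjusted p = 0.00664) and by 0.44 with Aβ40 (adjusted p = 0.0414), and the Aβ40 call was lost in 16 of 18 alternatives. The Adam10 response to Aβ42 was −0.65 (adjusted p = 0.029), a call lost in 9 of 18 alternatives, and the Psen2 response to Aβ40 was −1.12 (adjusted p = 0.00371). For Psen2 with Aβ42 the difference was −0.30 with an interval of −0.86 to 0.25. With Aβ42 the same 4 genes passed without microglia Aβ42 replicate 1 (Aplp2 −0.65, Ncstn −0.48, Adam10 −0.86, Adam17 −1.89) and without astrocyte control replicate 2 (Aplp2 −0.71, Ncstn −0.39, Adam10 −0.79, Adam17 −1.93). With Aβ40 and without astrocyte control replicate 2, Aplp2 (−0.56), Psen2 (−0.98), Ncstn (−0.38) and Adam17 (−1.31) passed, and so did Aph1a (−0.65, adjusted p = 0.0377). App and Bace1 did not pass with either form.

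Other genes of the pathway were read from 4 lists, and the shares of all genes that were higher and lower, given above, are the background for their counts: 16.5% and 20.4% in Aβ42 astrocytes, 14.9% and 18.4% in Aβ40 astrocytes, 27.1% and 26.6% in Aβ42 microglia and 19.6% and 21.4% in Aβ40 microglia. Of the other APP relatives and proteases, 11 of 13 were tested in each cell type, with 1 higher and 5 lower in Aβ42 astrocytes, 0 and 3 in Aβ40 astrocytes, 3 and 4 in Aβ42 microglia and 2 and 5 in Aβ40 microglia. The list medians in that order were −0.37, −0.34, 0.00 and −0.31, beside medians of all genes between −0.00 and 0.01. Mmp14, a membrane metalloproteinase that can cut APP, rose in microglia from 43.6 ± 4.69 CPM to 739 ± 71.7 CPM with Aβ42 (4.08, adjusted p = 5.26e-10) and 684 ± 22.6 CPM with Aβ40 (3.97). Lgmn, the lysosomal enzyme known as δ-secretase, fell in microglia from 2685 ± 271 CPM to 809 ± 57.3 CPM and 789.6 ± 118 CPM (−1.73 and −1.77). Adam9 fell in all 4 comparisons (−0.57, −0.56, −1.08 and −0.81). The lysosomal protease Ctsb rose with Aβ42 in astrocytes (0.61) and fell in microglia (−0.62 and −0.76). Aplp1 rose with Aβ42 in microglia (0.64, adjusted p = 0.00459).

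Among regulators of the proteases, 18 of 20 were tested, with 4 higher and 5 lower in Aβ42 astrocytes, 2 and 4 in Aβ40 astrocytes, 11 and 5 in Aβ42 microglia and 6 and 3 in Aβ40 microglia. The list medians were 0.08, 0.08, 0.57 and 0.17. Rhbdf2 encodes iRhom2, which carries ADAM17 to the cell surface and keeps it active. It rose in all 4 comparisons, from 9.92 ± 2.81 CPM to 61.1 ± 8.14 CPM and 53.2 ± 4.69 CPM in astrocytes (2.57 and 2.37) and from 70.0 ± 8.33 CPM to 239.9 ± 40.2 CPM and 196 ± 10.5 CPM in microglia (1.78 and 1.48). Timp3, an inhibitor of ADAM17, fell in astrocytes from 338 ± 82.7 CPM to 123 ± 7.90 CPM and 135 ± 10.8 CPM (−1.45, adjusted p = 6.13e-05, and −1.32, adjusted p = 1.33e-04) and did not pass in microglia. Tspan15, a tetraspanin partner of ADAM10, fell in astrocytes (−1.13 and −0.92) and rose in Aβ42 microglia (0.94). Tspan5, another ADAM10 partner, rose in microglia (1.10 and 0.56) and in Aβ42 astrocytes (0.39). Gga2, a sorting adaptor, fell in microglia (−1.11 and −1.72) and rose in Aβ42 astrocytes (0.57). The metalloproteinase inhibitor Timp2 fell in microglia (−1.10 and −1.45) and in Aβ42 astrocytes (−0.59), while Timp1 rose in all 4 comparisons (0.52 to 0.72).

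Of the adaptors, sorting receptors and γ-secretase modulators, 20 of 22 were tested, with 3 higher and 4 lower in astrocytes with either form, 9 and 6 in Aβ42 microglia and 4 and 5 in Aβ40 microglia. Gsap, named for an action on γ-secretase, rose in astrocytes from 6.76 ± 2.04 CPM to 223 ± 20.3 CPM with Aβ42 (34.1-fold, adjusted p = 2.30e-08) and 165 ± 17.4 CPM with Aβ40 (25.3-fold), and by 2.00-fold and 2.39-fold in microglia. Ifitm3, an interferon-inducible membrane protein that binds γ-secretase, rose in microglia from 5.09 ± 1.92 CPM to 182 ± 29.0 CPM and 139 ± 25.6 CPM (5.11 and 4.72) and in astrocytes by 1.21 and 1.18. Sorl1, a sorting receptor that returns APP from endosomes, fell in astrocytes from 145 ± 13.4 CPM to 44.4 ± 1.83 CPM and 58.9 ± 1.35 CPM (−1.70 and −1.30), and it rose in Aβ42 microglia (0.53, adjusted p = 0.0494). Sort1, which encodes sortilin, fell in all 4 comparisons and by 7.29-fold in Aβ42 microglia (583 ± 37.3 CPM to 80.6 ± 7.75 CPM, adjusted p = 2.14e-09). In microglia Apba1 (−1.59 and −1.70) and Itm2b (−0.75 and −0.93) also fell with both forms.

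Of 30 other substrates of the secretases, 27 were tested in astrocytes and 26 in microglia, with 8 higher and 9 lower in Aβ42 astrocytes, 7 and 9 in Aβ40 astrocytes and 13 and 6 in microglia with either form. The medians were −0.14 and −0.15 in astrocytes and 0.52 with either form in microglia. Tnf, whose protein is released by ADAM17, rose in microglia from 108 ± 7.48 CPM to 1036 ± 115 CPM with Aβ42 (3.25) and 1266 ± 82.6 CPM with Aβ40 (3.54, adjusted p = 1.16e-09), and it rose in astrocytes (3.53 and 2.83). Cx3cl1, a membrane chemokine shed by ADAM10 and ADAM17, rose in astrocytes (3.50 and 3.35) and in microglia (4.21 and 4.26). Jag1, a Notch ligand, rose in all 4 comparisons (2.39 and 1.99 in astrocytes, 0.72 and 0.50 in microglia). The receptor gene Il6r rose in astrocytes (2.04 and 2.10) and fell in microglia (−1.83 and −1.88). Csf1r, a receptor of microglia and one of the microglial markers, fell in microglia (−3.87 and −3.90) and in astrocyte cultures (−4.61 and −5.40). Sirpa fell in microglia (−2.20 and −2.09), Mertk fell in all 4 comparisons (−1.55 in Aβ40 astrocytes) and Sez6, a BACE1 substrate, fell in astrocytes (−2.04 and −1.34). Without astrocyte control replicate 2, the lower counts became 5 for the proteases with Aβ40 and 7 for the adaptors with either form, while the lower share of all genes became 24.8% with Aβ42 and 22.2% with Aβ40. Without the library labelled microglia Aβ42 replicate 1, the Aβ40 counts in microglia became 6 higher and 8 lower for the adaptors and 15 and 6 for the substrates, beside 26.4% and 27.6% of all genes. The other named genes with a call are shown in the plot of the pathway lists.

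**Figure D4:**
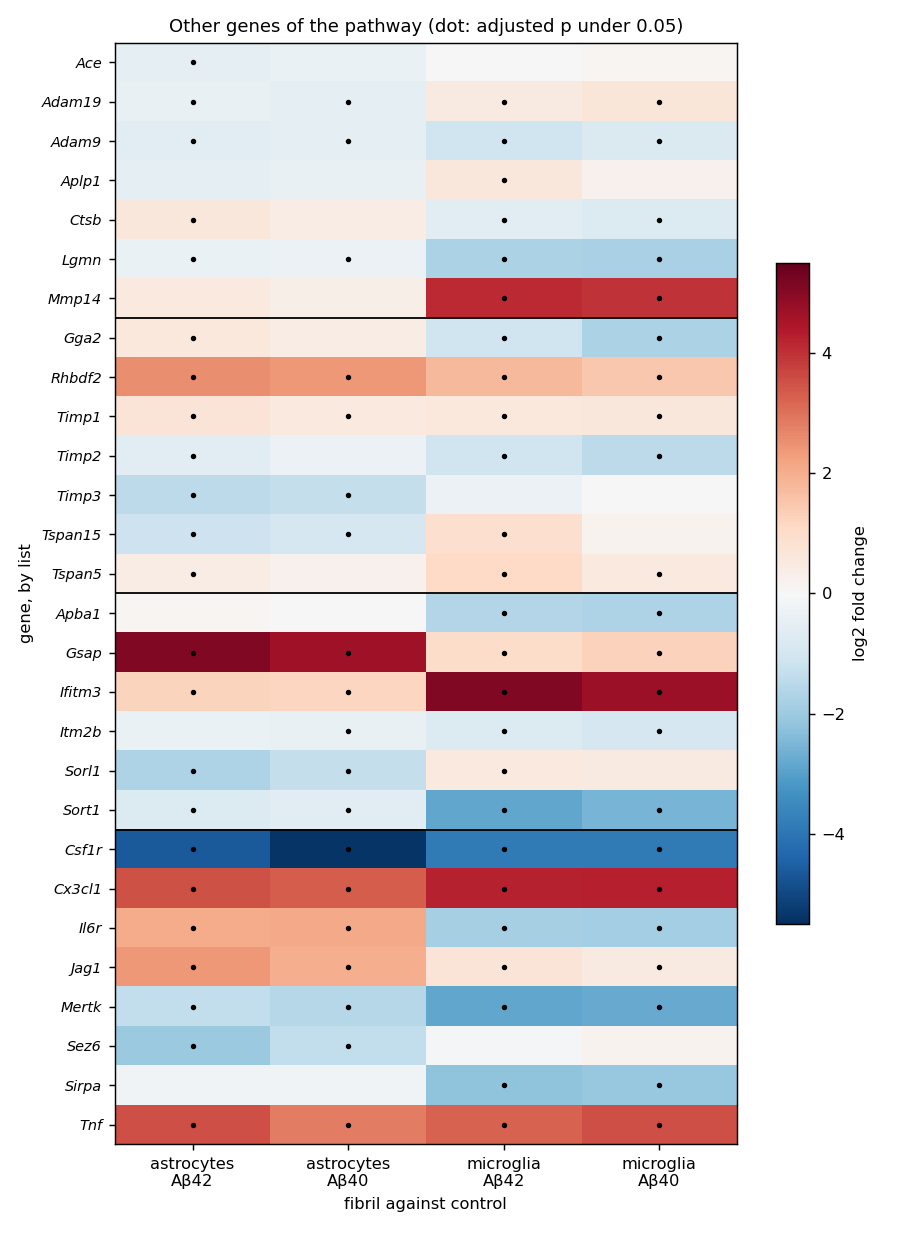
Log2 fold change (colour, red for higher and blue for lower) of 28 genes of the 4 lists (rows, separated by list in the order described) for each fibril against control (columns), with a dot where the adjusted p-value was under 0.05. Rhbdf2 is higher in all 4 columns (1.48 to 2.57), Gsap lies at 5.09 and 4.66 in astrocytes, and Ifitm3, Cx3cl1 and Mmp14 lie at 5.11, 4.21 and 4.08 in Aβ42 microglia.

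The genes whose pattern was most like that of App over the 18 libraries were Yipf1 (Pearson r of log2 CPM 0.953), Faah (0.945) and Rnpep (0.943), among 11580 other genes. Relative to the mean of each cell type they were LOC499240 (0.849), Yipf1 (0.832) and Faah (0.815). The libraries share cell type, treatment and depth, so these values describe likeness only. Of the other 8 genes, Bace2 came closest on the first measure (rank 1729, 0.768) and Aph1a on the second (rank 535, 0.582).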

How the data were processed

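The data were gene read counts of 18 RNA-seq libraries, 3 for each of 6 groups, grouped by the titles. The authors deposited 1 table of raw counts per library. The methods name STAR alignment to rat rn5 in the Illumina BaseSpace app, and DESeq2; versions and annotation are not given in the sources used here. The 2 rows that name no gene (21.7% to 34.2% of reads) were left out. Counts were tested with edgeR 4.0.16 (R 4.3.3) by its quasi-likelihood test, with TMM scaling, filterByExpr and Benjamini-Hochberg adjustment over all genes tested, fitted on the 9 libraries of a cell type, or on all 18 for comparisons between cell types. Every adjusted p-value is from that test unless a test by DESeq2 (1.42.0) is named. DESeq2 size factors replaced the TMM scaling only, and values under them were still tested with edgeR. The scripts were tested on simulated data. A floor of 3 counts came to 0.130 to 1.38 CPM per library. An exact permutation test of 3 against 3 cannot go below p = 0.1, so none is given for single genes.

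The members and lists were chosen with earlier results of these data known. Named beside the 9 genes were, from each list and for each fibril against control in each cell type, the 2 genes of smallest p in each direction among those that passed, and the 3 genes most like App. Alternatives were other scalings, filters, fits, a 1.5-fold threshold, DESeq2, a block for the replicate number, and fits that drop 1 replicate at a time. Leaving out astrocyte control replicate 2, microglia Aβ42 replicate 1, and the 2 astrocyte libraries whose files are named in another style was chosen after seeing the data. Promoter windows were read from RefSeq tables (GRCr8) and no coordinates were carried to rn5.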

Additional observations from a re-analysis of the deposited data

Results flagged for a closer look

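The responses of the 2 cell types to fibrils differed, by the test of the difference itself (edgeR, microglia minus astrocytes, log2 scale), for Aplp2, Ncstn and Adam17 with both fibril forms, Adam10 with Aβ42 and Psen2 with Aβ40. With Aβ42 the difference was −0.51 for Ncstn, −1.82 for Adam17, −0.59 for Aplp2 and −0.65 for Adam10. With Aβ40 it was −0.49 for Ncstn, −1.12 for Psen2, −1.20 for Adam17 and −0.44 for Aplp2. The Aplp2 call with Aβ40 was lost in 16 of 18 alternatives and the Adam10 call with Aβ42 in 9 of 18. The fitted values for Bace2, 3.29 with Aβ42 and 1.60 with Aβ40, are given as a description with no test, since Bace2 entered the joint fit only through its astrocyte level and had 4, 1 and 3 counts in control microglia. Groups of 3 are too small for a check of single outlying samples.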

How the results depend on the processing

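Of the fold changes of single genes under the alternatives, 1049 kept direction and side of the threshold, 71 lost a call, 13 gained one and 55 changed sign. Psen2 and Adam17 kept their calls against control in astrocytes with both forms, and Psen2 and Adam10 kept theirs in Aβ42 microglia. For pairing, each gene's group mean was subtracted first, and the deviations left were correlated between libraries of different groups. Deviations of the same replicate number correlated at −0.16 on average in astrocytes (−0.53 to 0.36) and 0.00 in microglia (−0.19 to 0.22). Those of different numbers correlated at 0.09 (−0.46 to 0.53) and 0.00 (−0.21 to 0.23). Whether the replicate numbers pair the samples cannot be decided from these values, since they come from small groups, take both signs and overlap. With the replicate block, 0 of the 9 genes passed between the forms in microglia, where all genes called went from 2198 to 752, and in astrocytes from 10 to 0.

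The count of called genes among the 9 moved in these settings. Between the forms it was 1 in astrocytes and 0 in microglia with the compared groups alone. Leaving out 1 replicate gave 0 to 6 in microglia. The 6 came without the library labelled Aβ42 replicate 1, a choice that widens this difference. Of these 6, Bace2 entered only through its high libraries. For Aβ40 against control in microglia it was 1 at 1.5-fold or more and 2 to 5 with 1 replicate left out. Without Aβ40 replicate 3 or any 1 control, these counts include Bace2 as higher, which entered only through its high Aβ42 libraries. The genes called lower were 2 to 4, with 2 without Aβ40 replicate 1 or control replicate 1 or 3. For the Aβ40 response difference, where the 5 called genes include Bace2, it was 3 with 10 counts in every library and 3 to 6 with 1 replicate left out, 3 without microglia Aβ40 replicate 1 or 2 or control replicate 2. Over all genes, 10 passed between the forms in astrocytes, against 141 with DESeq2, 6 with 10 counts in every library, 265 with the compared groups alone, 120 without the 2 libraries of the other file style and 0 to 4 with 1 replicate left out. In microglia 2198 passed, against 106 with the compared groups alone, 1460 at 1.5-fold or more and 99 to 6004 with 1 replicate left out. The cause was not tested.

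The changes of sign were all of values that did not pass. Without a filter the values were App 0.011 (astrocytes with Aβ42), App 0.0045 (microglia between the forms). With library totals the values were Ncstn −0.00405 (astrocytes with Aβ42), App 0.0062 (microglia between the forms), Bace1 0.18 (untreated cells). Without both astrocyte libraries of the other file style the values were Ncstn −0.054 (astrocytes with Aβ42), Bace1 0.053 (astrocytes between the forms), Psen2 0.0078 (astrocytes between the forms). With DESeq2 size factors the values were Aplp2 0.00037 (astrocytes between the forms), Psen2 0.0035 (astrocytes between the forms), Aph1a 0.0041 (microglia with Aβ42), App 0.0091 (the Aβ42 response difference). With DESeq2's Wald test the values were Aplp2 0.00037 (astrocytes between the forms), Psen2 0.0036 (astrocytes between the forms), Aph1a 0.0010 (microglia with Aβ42), App 0.014 (the Aβ42 response difference). With the compared groups alone the values were Psen2 0.00076 (astrocytes between the forms), Aph1a 0.013 (microglia with Aβ42). With 10 counts in every library the values were Aph1a 0.0072 (microglia with Aβ42), App 0.0054 (microglia between the forms), Bace1 0.00081 (untreated cells), App 0.011 (the Aβ42 response difference). Leaving out 1 replicate gave ranges across 0, for astrocytes between the forms Adam10 −0.12 to 0.056, Aph1a −0.066 to 0.093, Aplp2 −0.037 to 0.025, Bace1 −0.064 to 0.052, Psen2 −0.025 to 0.020. For astrocytes with Aβ42 App −0.048 to 0.059, Ncstn −0.066 to 0.16. For microglia between the forms App −0.058 to 0.083. For microglia with Aβ40 App −0.084 to 0.0015, Bace1 −0.084 to 0.046, Psen2 −0.040 to 0.22. For microglia with Aβ42 Aph1a −0.14 to 0.18, App −0.11 to 0.026. For the Aβ40 response difference Adam10 −0.20 to 0.067. For the Aβ42 response difference App −0.11 to 0.055. For untreated cells Bace1 −0.34 to 0.13.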
